A study of Mus musculus with 16 samples.

Results

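Muscle RNA from GDF15-treated mice was compared with that from vehicle-treated mice in the tibialis anterior, a largely fast-twitch muscle of the shin. The libraries were chosen by the treatment given in their labels, and they make up 11 of the 16 libraries of the series, with 6 from GDF15-treated and 5 from vehicle-treated mice and 1 library per mouse. The remaining 5 libraries came from pair-fed mice, which each day were given as much food as GDF15-treated mice had eaten on the previous day. All mice were WT, labelled C57BL/6 (C57BL/6J males in the study's methods). They ate a NASH diet, rich in fat and fructose, from 8 weeks of age, were kept at 29 °C and were single-housed for treatment. Recombinant human GDF15 was injected under the skin once a day in the morning. The protocol names daily doses between 0.3 and 5 nmol per kg without assigning any to these libraries, and neither the hour at which the muscles were taken nor the length of this treatment is given in the labels. GDF15 lowers food intake, so the vehicle comparison holds the whole effect of treatment, and the hormone and the reduced meals cannot be told apart within it. The pair-fed mice are therefore given beside it for the genes past both thresholds and for others where stated.

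GDF15 is a hormone released by stressed cells, and its receptor, GFRAL, is found in the hindbrain, where GDF15 lowers appetite. Skeletal muscle carries its own circadian clock, in which BMAL1 (encoded by Arntl) with CLOCK or NPAS2 drives the transcription of the Per and Cry genes, whose proteins in turn hold BMAL1 back. The timing of meals and the daily wave of glucocorticoid both act on this clock. Growth hormone reaches muscle in pulses and acts there through STAT5, which switches on Cish and the Socs genes, and their products damp the same signal.

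The labelled tissue was checked against its markers. The muscle fibre markers Ckm, Acta1, Myh4, Mylpf and Tnnt3 summed to 1716700 to 1955100 normalised counts in the vehicle mice and to 1747600 to 2021700 in the GDF15-treated mice, while the summed T and B cell markers, 3 of 6 of which are in the table, reached at most 13.3. Adipocyte markers summed to 85.8 to 402 in the vehicle mice and 50.8 to 1193.5 under GDF15, with mouse 2 highest, and red blood cell markers to 259.5 to 3146 and 838 to 2556, and their part in the results was not tested. Vehicle libraries held about 11875090 to 15023633 reads and GDF15 libraries about 9496162 to 13857551, and libraries of the same group correlated at 0.979 to 0.986. In a bulk sample, fewer cells of a type and less RNA in each cell cannot be told apart, and this holds for every level given here. Values are normalised counts, which are comparable between mice for a gene but, since they are not divided by length, not between genes.

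GDF15 treatment moved few genes by a large amount. Of 11841 genes tested, 36 passed both thresholds, an adjusted p under 0.1 and a log2 fold change beyond 0.6 in either direction, which is 0.304% of the genes. Of these, 24 were higher in the GDF15-treated mice (0.203%) and 12 were lower (0.101%). On the deposited values themselves 9 genes passed both thresholds, 8 higher and 1 lower, and without GDF15-treated mouse 2, vehicle mouse 2 or vehicle mouse 3 there were 21, 22 and 23. By the adjusted p alone 91 genes passed (0.769%), 51 higher (0.431%) and 40 lower (0.338%). Without vehicle mouse 2, GDF15-treated mouse 2 or vehicle mouse 3 that count was 45, 47 and 48. At an unadjusted p under 0.05 there were 1308 genes, or 11.0%. The median log2 fold change over all genes was 0.00081, and 49.6% of the genes had a fitted difference below 0, which the scaling of the libraries to each other favours. Groups of 5 and 6 mice did not overlap at 195 genes, or 1.65%; among the 36 genes past both thresholds 30 did not overlap, which the threshold itself favours. The largest rise among the called genes was that of Angptl7 and the largest fall that of Cish. All 36 are protein-coding, and 11 of them changed by more than 2-fold. The exons of 14 overlap those of another annotated gene, among them Usp2, Cish, Mid1ip1, Glul, Tob2, Arntl, Cep85l, Dbp and Dusp1, and since the strand setting is not given, reads of the partners could have been counted with them.

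**Figure D1:**
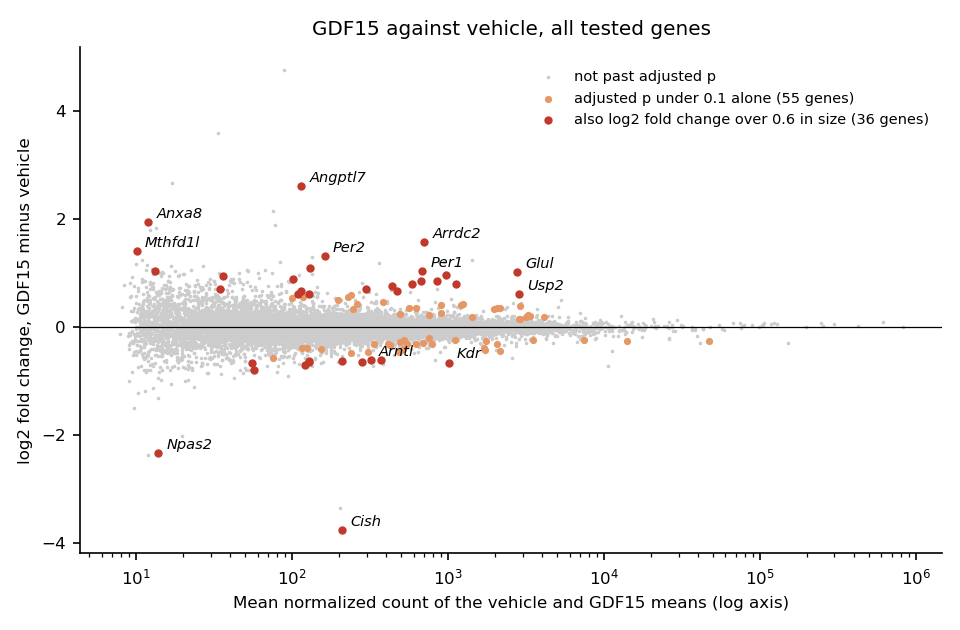
Each point is 1 of the 11841 tested genes, with the mean normalised count on a log axis across and the log2 fold change of GDF15-treated over vehicle mice upward. Red points are the 36 genes past both thresholds, 24 above 0 and 12 below, orange points are those past the adjusted p alone and grey points did not pass. Cish lies lowest of the red points at -3.76, and Angptl7 highest at 2.61.

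Of the gene lists examined, the clock list held the most genes past the adjusted p. Of 22 clock genes tested, 8 rose and 2 fell past the adjusted p, against 0.431% and 0.338% of all genes, and 15 had an unadjusted p under 0.05, against 11.0% of all genes. The median log2 fold change of the list was 0.12. The list was written with earlier results for these genes known, so its count describes them and is no independent evidence. For reference, the start-site regions of 5 genes that rose, Per1, Per3, Tef and Hlf of this list and Dusp1 of the cAMP list, are printed below in RefSeq sequence of GRCm38.p6, 5′ to 3′ on the gene's own strand, trimmed to the bases that lie outside annotated exons. Capitals mark 3 motifs, each searched on both strands: the E-box CACGTG, which BMAL1 and CLOCK bind; the D-box TTATGTAA, bound by DBP, TEF and HLF; and the cAMP response element TGACGTCA, bound by CREB. These 5 regions are shown because, of those looked up, they hold 1 or more of the motifs outside exons, so they are no sample of the genes that rose.

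Per1 (chr11:69098699-69098947, plus strand): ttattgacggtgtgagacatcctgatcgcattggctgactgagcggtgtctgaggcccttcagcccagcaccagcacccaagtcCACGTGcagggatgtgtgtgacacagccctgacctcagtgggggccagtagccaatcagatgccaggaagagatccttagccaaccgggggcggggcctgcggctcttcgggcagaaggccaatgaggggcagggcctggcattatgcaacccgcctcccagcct
Per3 (chr4:151044666-151044915, minus strand): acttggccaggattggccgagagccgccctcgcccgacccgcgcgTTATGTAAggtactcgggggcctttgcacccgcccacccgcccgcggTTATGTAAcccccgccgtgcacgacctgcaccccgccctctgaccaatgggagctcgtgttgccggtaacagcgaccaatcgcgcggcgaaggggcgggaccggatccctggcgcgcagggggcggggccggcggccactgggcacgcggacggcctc
Tef (chr15:81811164-81811413, plus strand): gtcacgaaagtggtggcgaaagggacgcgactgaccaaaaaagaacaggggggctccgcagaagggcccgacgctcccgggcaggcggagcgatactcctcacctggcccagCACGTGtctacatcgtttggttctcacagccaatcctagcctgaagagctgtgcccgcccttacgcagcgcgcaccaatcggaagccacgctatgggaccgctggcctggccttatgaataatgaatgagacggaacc
Hlf (chr11:90390918-90391167, minus strand): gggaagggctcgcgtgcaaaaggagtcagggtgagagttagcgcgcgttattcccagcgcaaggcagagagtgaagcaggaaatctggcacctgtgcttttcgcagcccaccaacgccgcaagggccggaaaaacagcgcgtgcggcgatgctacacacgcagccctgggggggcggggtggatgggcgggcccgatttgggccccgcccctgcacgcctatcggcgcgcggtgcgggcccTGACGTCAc
Dusp1 (chr17:26508520-26508722, minus strand): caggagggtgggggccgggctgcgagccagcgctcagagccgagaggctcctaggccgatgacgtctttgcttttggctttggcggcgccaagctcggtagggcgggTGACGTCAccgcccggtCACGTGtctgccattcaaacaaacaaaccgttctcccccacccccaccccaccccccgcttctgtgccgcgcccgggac

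The Per1 and Tef regions each hold 1 E-box, the Per3 region holds 2 D-boxes, the Hlf region 1 cAMP response element, and the Dusp1 region holds 1 cAMP response element and 1 E-box. The Per1 region lies inside the span of the gene, in an intron of a longer transcript. Of 32851 mouse promoter windows of 250 bases, 6.02% hold the E-box, 0.819% the D-box and 1.55% the cAMP response element. A match describes the letters and is not evidence of binding. Of 11 genes looked up, 10 had an entry, with 13 windows in all.

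The Period genes and Cry2, repressors of the clock, rose. Per2 (chr1:91415982-91459324), a core repressor, measured 88.9, 67.1, 108, 95.5 and 95.9 normalised counts in vehicle mice 1 to 5, and in the GDF15-treated mice its lowest count was 155, its median 223 and its highest 327. Every GDF15-treated mouse lay above every vehicle mouse. The log2 fold change was 1.31 ± 0.15 (SE), a 2.49-fold rise, with an adjusted p of 0.000517. Per1 (chr11:69095217-69109960), the partner repressor that also responds directly to cAMP and to glucocorticoid, measured 482, 433, 455, 505 and 348 in the vehicle mice and from 658 over a median of 901 to 1148 in the GDF15-treated mice. Again the groups did not overlap, and the rise was 2.04-fold, with a log2 fold change of 1.03 ± 0.13 and an adjusted p of 0.00145. Per3, the third Period gene, rose by less, from 320.2 ± 28.4 to 439 ± 30.1 normalised counts (mean ± SD, n = 5 and 6), a log2 fold change of 0.46 ± 0.066 at an adjusted p of 0.00364. Cry2, which works with the Period proteins, rose by 0.34 on the log2 scale (adjusted p = 0.0899), whereas its relative Cry1 differed by 0.068 (adjusted p = 0.855).

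Of the genes driven by the clock, Usp2, Dbp, Hlf and Tef rose past the adjusted p, while Ciart and others of the list given after them did not. Usp2 (chr9), a deubiquitinase whose transcript cycles in many tissues, had 2422, 2029.6, 2342, 2153 and 2272 normalised counts in the vehicle mice, and 2862, 3407 and 3975 as lowest, median and highest of the GDF15-treated mice. The groups were fully separate, with a 1.52-fold rise (log2 fold change 0.60 ± 0.068, adjusted p = 0.000517). It sat at the fold threshold of 0.6, and without vehicle mouse 2 the value was 0.57, without vehicle mouse 4 0.59, and without GDF15-treated mouse 3 or 5 it was 0.58 and 0.56, with mouse 2 also just under it, each with an adjusted p of at most 0.00256. Dbp, a D-box activator under direct control of BMAL1, measured 735, 615, 845, 995 and 882 in vehicle mice and 949, 1454 and 1734 at the low end, median and high end of the GDF15-treated mice. Here the groups overlapped, because GDF15-treated mouse 4 lay below vehicle mouse 4, and the rise was 1.74-fold (log2 fold change 0.79 ± 0.14, adjusted p = 0.0127). The related D-box activators Hlf and Tef rose by 0.56 and 0.19 on the log2 scale, both with an adjusted p of 0.0889, and differed by 0.59 and 0.30 between pair-fed and vehicle mice. Ciart, a repressor of CLOCK and BMAL1, differed by 1.01 and did not pass (adjusted p = 0.112).

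Of the activators, Arntl and Npas2 fell. Arntl, which encodes BMAL1, measured 452, 396, 329.5, 329.8 and 414 normalised counts in the vehicle mice, against a lowest of 212, a median of 253 and a highest of 296 under GDF15. All GDF15-treated mice lay below all vehicle mice, and the log2 fold change was -0.61 ± 0.10 (adjusted p = 0.00882). Without vehicle mouse 1, 2 or 5 or GDF15-treated mouse 2 or 5 it lay between -0.59 and -0.54, inside the fold threshold but with an adjusted p of at most 0.036. Npas2, a partner that can stand in for CLOCK, was rare in this muscle, with 8.49, 21.8, 33.6, 20.6 and 34.2 normalised counts in the vehicle mice and 0.949, 3.67 and 7.30 as the lowest, median and highest under GDF15. The groups did not overlap, although vehicle mouse 1 was only a little above the highest GDF15-treated mouse. Its log2 fold change was -2.33 ± 0.44 (adjusted p = 0.0256), resting on few reads. Clock itself differed by -0.29 (adjusted p = 0.141), and Nr1d1, the repressor of Arntl known as REV-ERBα, by -0.21 (adjusted p = 0.375). Among the other members that did not pass were Nr1d2 (0.13), Bhlhe40 (0.01), Bhlhe41 (0.36), Rora (0.10), Nfil3 (-0.068), Csnk1d (0.093) and Csnk1e (0.11), all as log2 fold changes.

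**Figure D2:**
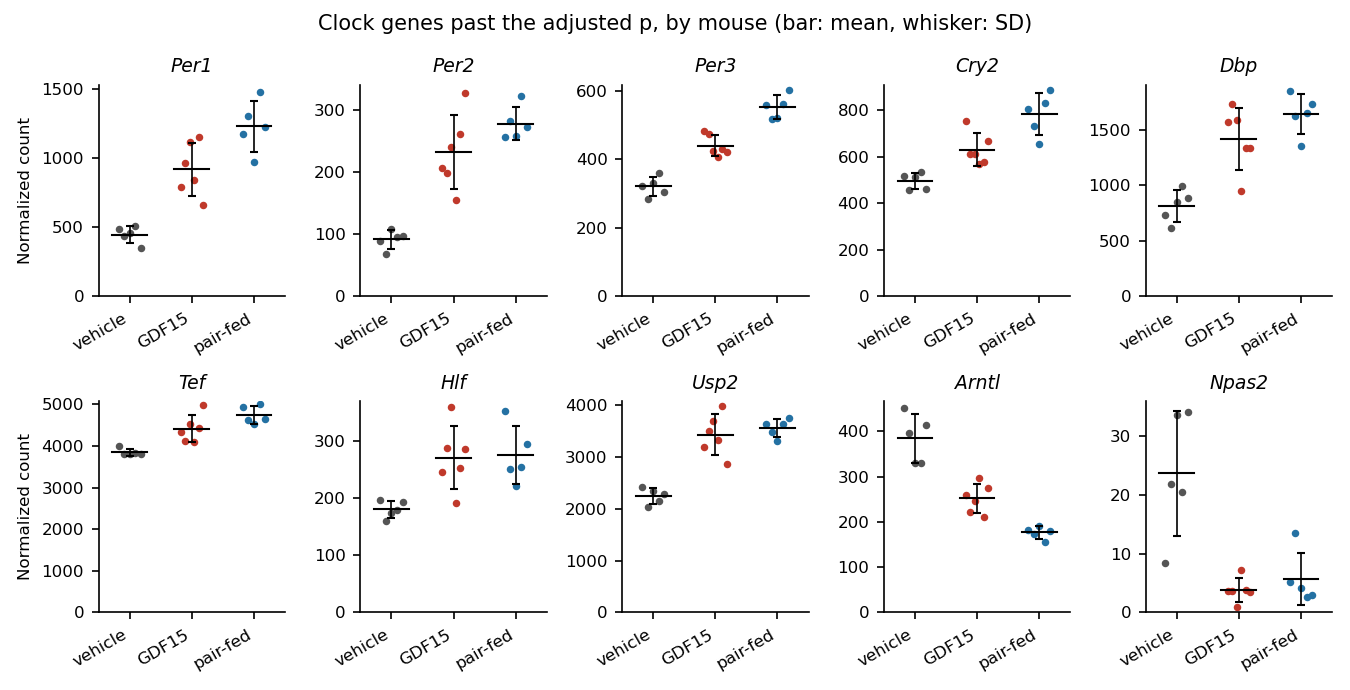
Normalised counts of the 10 clock genes past the adjusted p, from 0, with 1 point per mouse in the vehicle (5), GDF15 (6) and pair-fed (5) groups, a bar at each group mean and a whisker of 1 SD. Per1, Per2 and Usp2 of the GDF15-treated mice lie wholly above the vehicle mice, and Arntl and Npas2 lie wholly below.

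The pair-fed mice showed differences of the same genes from the same vehicle mice, which both comparisons share. Pair-fed mice differed from vehicle mice at 754 genes by the adjusted p (6.37%), and from GDF15-treated mice at 257 genes (2.17%), while 16 of 22 clock genes passed in the pair-fed mice. Per2 averaged 278 ± 27.0 normalised counts in the pair-fed mice (mean ± SD, n = 5), a log2 fold change of 1.61 over vehicle, and GDF15-treated mice differed from pair-fed mice by -0.30 (adjusted p = 0.423). Per1 averaged 1229 ± 184 in the pair-fed mice, 1.46 over vehicle, and the GDF15 to pair-fed difference was -0.43 (adjusted p = 0.148). Usp2 stood at 3557 ± 174, 0.67 over vehicle. Dbp stood at 1646 ± 182, 1.03 over vehicle, and Npas2 at 5.71 ± 4.51, -1.94 against vehicle. Arntl stood at 177 ± 13.6, -1.11 against vehicle, and in the GDF15-treated mice it was higher than in the pair-fed mice by 0.50 (adjusted p = 0.0276). Per3 and Cry2 were lower in the GDF15-treated than in the pair-fed mice, with log2 differences of -0.33 (adjusted p = 0.0297) and -0.31 (adjusted p = 0.0821). For Per2, Per1, Dbp, Usp2 and Npas2 the GDF15 to pair-fed difference did not pass, which does not show that the levels were alike.

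Cish, a feedback inhibitor of cytokine and growth hormone receptors, showed the largest fall. It lies at chr9:107296026-107302784 and measured 92.7, 101, 805, 529 and 431 normalised counts in vehicle mice 1 to 5. In the GDF15-treated mice the lowest count was 6.03, the median 16.3 and the highest 69.9. The groups did not overlap, but vehicle mice 1 and 2 stood well below the other vehicle mice. The log2 fold change was -3.76 ± 0.57 (95% interval -4.96 to -2.56), with an adjusted p of 0.00588. In the pair-fed mice Cish averaged 447 ± 142, and the difference from vehicle was 0.61 (adjusted p = 0.634). GDF15-treated and pair-fed mice differed by -4.37 (adjusted p = 0.00243). Noncoding transcripts annotated on the opposite strand overlap its exons. Cish passed both thresholds under every alternative setting, with log2 fold changes from -4.16 to -1.36.

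Of 19 genes on the growth hormone and STAT5 list, Cish was the only 1 past the adjusted p, against 0.769% of all genes, 4 had an unadjusted p under 0.05, against 11.0%, and the median log2 fold change was -0.027. Against the pair-fed group 5 of the 19 passed, where 2.17% of all genes did. Socs2, another STAT5 target that damps growth hormone signalling, measured 47.0, 91.8, 338, 164 and 169 normalised counts in the vehicle mice and 52.7, 75.3 and 157 as lowest, median and highest under GDF15. The groups overlapped, with vehicle mice 1 and 2 again the lowest of their group. Its log2 fold change was -0.73 (adjusted p = 0.474), while the difference of GDF15-treated from pair-fed mice was -1.58 (adjusted p = 0.0486). Socs1, chosen after its values were seen, measured 8.79, 9.69, 52.2, 61.4 and 36.2 in the vehicle mice and 3.88 to 7.94 under GDF15, where again vehicle mice 1 and 2 were low. Its difference of -2.02 did not pass (adjusted p = 0.128). The receptor gene Ghr differed by -0.022, Stat5a by -0.072, Stat5b by -0.026 and Bcl6, a repressor of STAT5 targets, by -0.10. Igf1, the growth factor that growth hormone raises, differed by 0.48 with overlapping groups (adjusted p = 0.71). The member with the highest count, Igfbp5, differed by 0.0086 (adjusted p = 0.989).

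**Figure D3:**
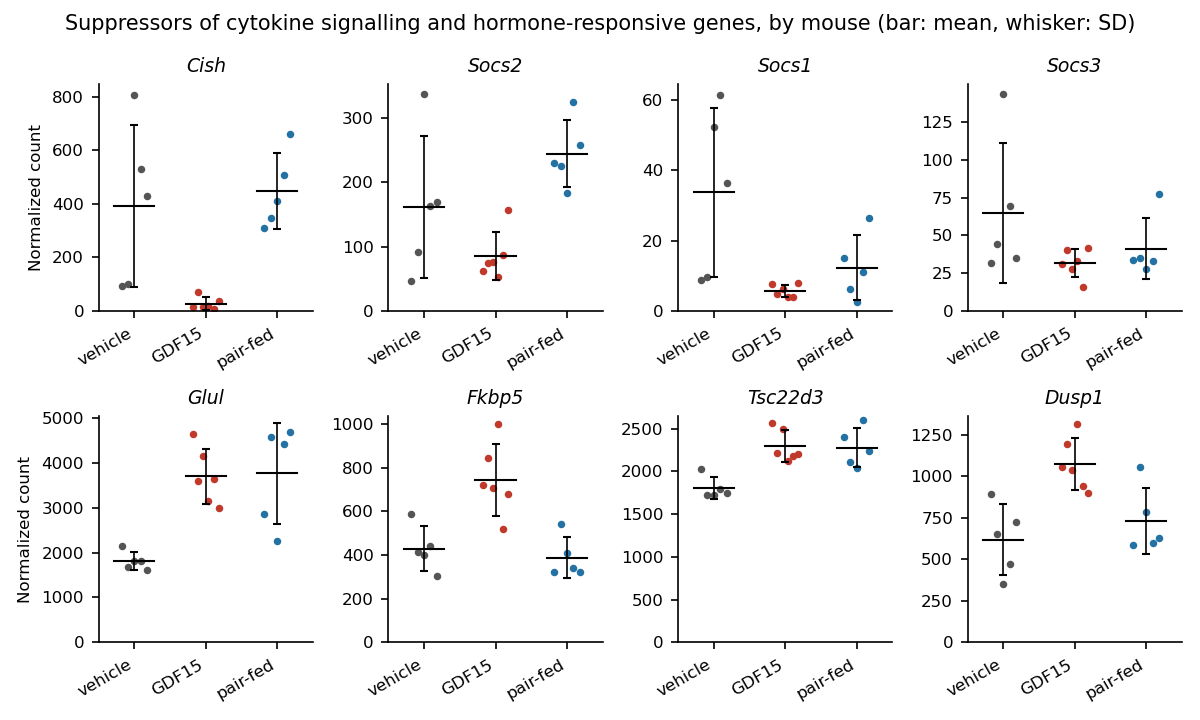
Normalised counts from 0, with 1 point per mouse, of Cish, Socs2, Socs1, Socs3, Glul, Fkbp5, Tsc22d3 and Dusp1 in the vehicle (5), GDF15 (6) and pair-fed (5) mice, with a bar at the mean and a whisker of 1 SD. Cish in every GDF15-treated mouse lies below every mouse of both other groups, with a highest value of 69.9.

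Of 18 genes responsive to glucocorticoids, 6 rose past the adjusted p and 0 fell, against 0.431% and 0.338% of all genes, 11 had an unadjusted p under 0.05, against 11.0%, and the median log2 fold change was 0.24. Per1 belongs to this list and to the clock list. Glul, which encodes glutamine synthetase, measured 2137, 1672, 1805, 1817 and 1620.4 normalised counts in the vehicle mice, with 2997, 3616 and 4641 as lowest, median and highest under GDF15. All GDF15-treated mice were above all vehicle mice, a 2.03-fold rise (log2 fold change 1.02 ± 0.16, adjusted p = 0.00841). With the summed tendon or endothelial markers as a covariate the difference was 0.88 (adjusted p = 0.124) or 0.79 (adjusted p = 0.194), which did not pass. The tendon sums did not overlap between vehicle mice, up to 672, and GDF15-treated mice, from 752. A fit with that covariate therefore cannot tell treatment and tendon content well apart, here and for the genes below. In the pair-fed mice Glul averaged 3758 ± 1115, and GDF15-treated and pair-fed mice differed by 0.017 (adjusted p = 0.98).

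Fkbp5, a chaperone of the glucocorticoid receptor, measured 589, 415, 400.2, 439.9 and 303 in the vehicle mice and 518, 713 and 1002 at the low end, median and high end under GDF15. Vehicle mouse 1 lay above GDF15-treated mouse 5, so the groups overlapped. The log2 fold change was 0.80 ± 0.17 (adjusted p = 0.0561), and without vehicle mouse 2, 3 or 5 or GDF15-treated mouse 2 or 4 the adjusted p was 0.114 to 0.147. With tendon or endothelial markers as a covariate the difference was 0.93 (adjusted p = 0.13) or 0.70 (adjusted p = 0.324). In the pair-fed mice Fkbp5 averaged 389 ± 94.2, -0.14 against vehicle (adjusted p = 0.729), and GDF15-treated mice were higher than pair-fed mice by 0.94 (adjusted p = 0.0155). Tsc22d3, also called GILZ, rose by 0.35 (adjusted p = 0.0292; 0.33 in pair-fed over vehicle mice) and Klf9, a transcription factor induced by glucocorticoid, by 0.15 (adjusted p = 0.0744); against the pair-fed mice the Klf9 difference was -0.16 (adjusted p = 0.0355). The metallothionein gene Mt2 rose by 0.95 from a low level (24.1 ± 4.82 to 48.0 ± 11.2 normalised counts, adjusted p = 0.0889), a call lost without any 1 of 9 of the 11 libraries, all but vehicle mouse 1 and GDF15-treated mouse 5 (adjusted p 0.13 to 0.208), and pair-fed mice differed from vehicle by 0.24 (adjusted p = 0.64), whereas Mt1 differed by 0.29 (adjusted p = 0.529). The receptor gene Nr3c1 differed by -0.11, Sgk1 by 0.21, Zbtb16 by -0.12 and Klf15 by 0.31, and these 4 did not pass.

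Of 20 genes induced by cAMP through CREB, 2 rose, Per1 and Dusp1, against 0.431% of all genes, 18 had a fitted difference above 0, against 50.4%, and 8 had an unadjusted p under 0.05, against 11.0%, with a median of 0.23. Relative to the vehicle mean, the average over these genes was 0.708 in GDF15-treated mouse 4 and 0.251, 0.452 and 0.389 in mice 1 to 3. Mice 5 and 6, at 0.0518 and 0.134, lay inside the vehicle range of -0.126 to 0.151. Dusp1, a phosphatase that switches off MAP kinases, rose from 618 ± 212 to 1074 ± 156 normalised counts (log2 fold change 0.86 ± 0.20, adjusted p = 0.0744), and the groups did not overlap. Without vehicle mouse 2, 3 or 4 or GDF15-treated mouse 1, 2 or 4 its adjusted p was 0.113 to 0.16, and with tendon or endothelial markers as a covariate it differed by 0.95 (adjusted p = 0.2) or 0.85 (adjusted p = 0.296). The pair-fed mean was 729.6 ± 198. Other immediate-early members did not pass: Fos differed by 0.85, Egr1 by 0.23, Nr4a1 by 0.44, Sik1 by 0.31 and Atf3 by 0.18. Jun, an AP-1 subunit outside these lists, rose by 0.42 (adjusted p = 0.0224), with 0.37 in pair-fed over vehicle mice. The upstream list of beta-adrenergic, cAMP and PKA genes had 0 of 37 past the adjusted p, 3 at an unadjusted p under 0.05, against 11.0% of all genes, and a median of -0.012. On that list Gnas, the stimulatory G protein, differed by 0.038 and Pkia, an inhibitor of PKA, by -0.026.

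Kdr, which encodes the VEGF receptor VEGFR2 of endothelial cells, was the lower gene with the smallest adjusted p. It lies at chr5:75932827-75978458 and measured 1102, 1274, 1266, 1268 and 1237 normalised counts in the vehicle mice, against 653, 790.0 and 928 as lowest, median and highest under GDF15. The groups did not overlap, and the log2 fold change was -0.66 ± 0.083 (adjusted p = 0.00116). The pair-fed mean was 873 ± 110.2, -0.50 against vehicle (adjusted p = 0.00473). Cd93 and Aplnr, endothelial receptors, fell with log2 fold changes of -0.41 (adjusted p = 0.0127) and -0.38 (adjusted p = 0.0906). Col4a2, a basement membrane collagen, fell by 0.43 (adjusted p = 0.0939) with overlapping groups, and it was the only 1 of 32 collagens tested to pass, against 0.769% of all genes. Its partner Col4a1, which shares a promoter region with it on the opposite strand, differed by -0.43 (adjusted p = 0.112). Pair-fed mice differed from vehicle mice by -0.21 at Cd93, -0.35 at Aplnr and -0.41 at Col4a2. The 5 endothelial markers, Kdr among them, summed to 5003 to 5871 normalised counts in the vehicle mice and 4290.1 to 5133 in the GDF15-treated mice, and of the other 4, Pecam1 differed by -0.12, Cdh5 by -0.21, Tie1 by -0.08 and Vwf by -0.081, with 0 past the adjusted p. With the summed level of those 4 markers as a covariate the Kdr difference was -0.48 (adjusted p = 0.0193). With the same covariate Cd93 differed by -0.30 (adjusted p = 0.25), Aplnr by -0.42 (adjusted p = 0.275) and Col4a2 by -0.35 (adjusted p = 0.464), and these did not pass.

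Angptl7 showed the largest rise among the called genes, and the summed tendon markers were higher in the same mice. Angptl7, a secreted protein of tendon and other matrix-rich tissue, measured 18.4, 34.7, 21.0, 45.0 and 16.8 normalised counts in vehicle mice 1 to 5 and 74.5, 132 and 486 as lowest, median and highest under GDF15. Every GDF15-treated mouse was above every vehicle mouse, with mice 1 and 2 far above the rest, and the log2 fold change was 2.61 ± 0.46 (adjusted p = 0.0165). The pair-fed mice averaged 109.8 ± 62.6. Thbs2, a matrix glycoprotein, rose by 1.09 (adjusted p = 0.0899), Anxa8, a calcium-binding annexin, by 1.94 (adjusted p = 0.0899), Spock2, a proteoglycan, by 0.67 (adjusted p = 0.0454), Osr1, a transcription factor of connective tissue cells, by 0.70 (adjusted p = 0.0993) and Inmt, a methyltransferase, by 0.89 (adjusted p = 0.0907). Between pair-fed and vehicle mice the differences were 0.60 for Thbs2, 0.98 for Anxa8, 0.26 for Spock2, 0.16 for Osr1 and 0.44 for Inmt, with 0 of these 5 past the adjusted p in either comparison with the pair-fed mice. The 4 tendon markers summed to 527, 672, 452, 599 and 563 normalised counts in the vehicle mice, and to 752 at the lowest, 1066 at the median and 3187 at the highest under GDF15, with mice 1 and 2 highest. In the pair-fed mice the range was 553 to 2049. Tnmd differed by 1.00, Scx by 0.31, Fmod by 1.21 and Comp by 1.88, with 0 of 4 past the adjusted p. With the summed tendon markers as a covariate, Angptl7 differed by 1.28 (adjusted p = 0.156) and Thbs2 by 0.35 (adjusted p = 0.673), and the others also missed the adjusted p, at log2 fold changes of 1.47 for Anxa8, 0.47 for Spock2, 0.62 for Osr1 and 0.69 for Inmt. Without GDF15 libraries 1 and 2 together, Angptl7 differed by 1.99 (adjusted p = 0.0568) and Thbs2 by 0.73 (adjusted p = 0.283). Of the 11 libraries, leaving out any 1 of 10 (all but GDF15-treated mouse 5) lost the calls of Osr1 (adjusted p 0.101 to 0.228) and Inmt (0.115 to 0.228), and any 1 of 9 lost those of Thbs2 (all but GDF15-treated mice 3 and 5, adjusted p 0.12 to 0.194) and Anxa8 (all but vehicle mouse 3 and GDF15-treated mouse 3, adjusted p 0.109 to 0.218). Spock2 was lost without vehicle mouse 3 or 5 or GDF15-treated mouse 1 or 2, with log2 fold changes of at least 0.5955.

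**Figure D4:**
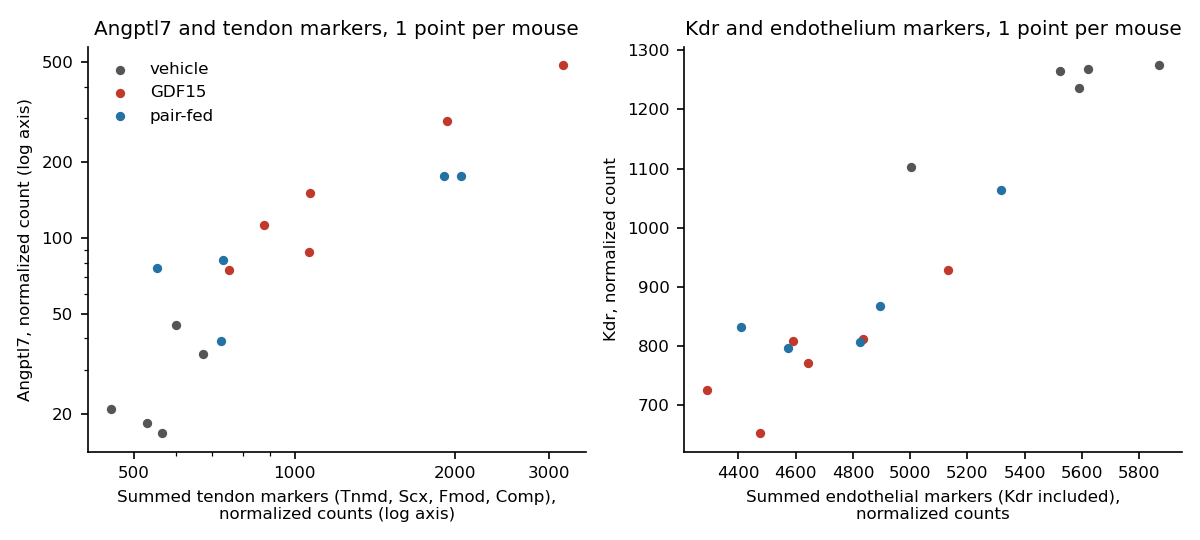
On the left, the normalised count of Angptl7 against the summed counts of 4 tendon markers on log axes, and on the right that of Kdr against the summed counts of 5 endothelial markers on linear axes that do not start at 0, with 1 point per mouse. The tendon sums of the GDF15-treated mice, from 752 upward, lie above the vehicle mice, whose highest is 672, whereas the endothelial sums overlap.

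Further genes past both thresholds follow with their values. Arrdc2, an arrestin-domain protein, measured 573, 378, 237, 324 and 258 normalised counts in the vehicle mice and 642, 1012 and 1417 as lowest, median and highest under GDF15. The groups did not overlap, with vehicle mouse 1 the highest of its group, and the rise was 2.99-fold (log2 fold change 1.58 ± 0.29, adjusted p = 0.0244). Tob2, an antiproliferative regulator of mRNA decay, measured 818, 736, 464, 646 and 620.4 in the vehicle mice against 1007, 1259 and 1679.7, with separate groups and a log2 fold change of 0.96 ± 0.16 (adjusted p = 0.00841). Mid1ip1, which promotes fatty acid synthesis by way of acetyl-CoA carboxylase, measured 316, 264, 362, 341 and 330.0 against 399, 552 and 638, also separate, with 0.76 ± 0.12 (adjusted p = 0.00841). In the pair-fed mice these 3 genes averaged 706 ± 349, 1184 ± 241 and 517 ± 90.0.

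Cep85l, a centrosomal protein, measured 733, 433, 516, 438 and 330.1 in the vehicle mice and 766, 859.7 and 927 under GDF15, with no overlap but vehicle mouse 1 close to the lowest GDF15-treated mouse. Its log2 fold change was 0.85 ± 0.14 (adjusted p = 0.00882), and its exons overlap those of Pln on the opposite strand, for which the strand setting of the quantification is not given. Mthfd1l, the mitochondrial enzyme that makes formate from one-carbon units, measured 3.13, 8.35, 3.02, 6.67 and 4.65 against 10.5, 13.7 and 21.2, a rise of 1.41 ± 0.27 (adjusted p = 0.0292) from few reads. Aldh1l1, a folate enzyme, rose by 0.62 (adjusted p = 0.0889), a call lost without any 1 of 9 libraries, all but GDF15-treated mice 3 and 5 (adjusted p up to 0.177), and pair-fed mice differed from vehicle by 0.29. Slc43a3, a purine base transporter, measured 355, 387, 395, 374 and 306 against 405, 605 and 654, with GDF15-treated mouse 1 far below the rest yet above every vehicle mouse, and rose by 0.67 ± 0.13 (adjusted p = 0.0319). The pair-fed mice averaged 612 ± 80.0 for Cep85l, 16.1 ± 1.80 for Mthfd1l and 449.9 ± 97.5 for Slc43a3.

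Among the lower genes, Rflnb, which binds filamin, measured 405, 361, 304, 294 and 364 in the vehicle mice and 184, 217 and 251 under GDF15. The groups did not overlap, and the log2 fold change was -0.66 ± 0.087 (adjusted p = 0.00146), with a pair-fed mean of 234 ± 9.08. Tspan2, a tetraspanin, measured 129.6, 200.3, 135, 138 and 173 against 81.3, 103 and 111, with a log2 fold change of -0.63 ± 0.12 (adjusted p = 0.0292). Ccdc69 measured 70.0, 62.5, 64.9, 82.1 and 61.2 against 34.5, 42.6 and 54.5 (-0.67 ± 0.13, adjusted p = 0.0319). The zinc finger gene Zfp229 measured 63.9, 64.8, 66.0, 68.4 and 97.9 against 32.3, 40.6 and 55.2 (-0.80 ± 0.16, adjusted p = 0.0319), with vehicle mouse 5 well above the others. For all 3 the groups were separate. The fold lay just inside the threshold for Rflnb without vehicle mouse 1 (-0.60), Ccdc69 without vehicle mouse 4 (-0.60), and inside it for Tspan2 without vehicle mouse 2 or 5 or GDF15-treated mouse 4. The pair-fed means were 132 ± 14.4 for Tspan2, 49.8 ± 5.47 for Ccdc69 and 65.3 ± 11.0 for Zfp229, and GDF15-treated mice differed from pair-fed mice by -0.66 at Zfp229 (adjusted p = 0.0577).

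The remaining genes past both thresholds are given by their log2 fold changes, and the call of each was lost without some single library. Higher were Rnaseh2a, a subunit of the enzyme that removes RNA from DNA (0.61), Adh1, an alcohol dehydrogenase (0.70), and Vmn2r97, a member of a large vomeronasal receptor family whose reads could be split among its relatives (1.03). Lower were Auts2, a neuronal transcriptional regulator (-0.60), Atp1b4, a muscle protein related to sodium pump subunits (-0.71), Tiam1, an activator of the GTPase RAC1 (-0.62), and Vwa3b (-0.65). The pair-fed differences from vehicle were 0.21 for Rnaseh2a, 0.42 for Adh1, 0.82 for Vmn2r97, -0.48 for Atp1b4, -0.27 for Tiam1 and -0.32 for Vwa3b, and of these 6 Vmn2r97 passed the adjusted p (0.0911). Auts2 also differed between pair-fed and vehicle mice, by -1.12 (adjusted p = 0.000132), and GDF15-treated mice were above pair-fed mice by 0.52 (adjusted p = 0.0577). Vwa3b lost its call without any 1 of 10 of the 11 libraries (all but GDF15-treated mouse 4), Tiam1 without any 1 of 9 (all but vehicle mouse 4 and GDF15-treated mouse 3) and Vmn2r97 without any 1 of 9 (all but vehicle mouse 1 and GDF15-treated mouse 1). Adh1 lost it without any 1 of 8 (all but vehicle mouse 4 and GDF15-treated mice 1 and 4) and Atp1b4 without any 1 of 8 (all but vehicle mice 4 and 5 and GDF15-treated mouse 1), with adjusted p-values up to 0.218 over these 5 genes. Auts2 lost it without vehicle mouse 2 or 4 or GDF15-treated mouse 1, 4 or 5, and Rnaseh2a without vehicle mouse 3 or GDF15-treated mouse 3 or 6.

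Of the 91 genes past the adjusted p alone, the 5 with the highest counts fell or rose by little. Ankrd23, a sarcomere-associated stress protein, fell by 0.25 from 51195 ± 3016 to 43142 ± 3730.0 normalised counts. The log2 fold changes were -0.26 for Asb2, a ubiquitin ligase subunit, -0.23 for Speg, a kinase needed for calcium release in muscle, and -0.23 for Ksr1, a MAP kinase scaffold, and all 3 fell. Tef, named above, is the other member of the 5. Slc7a8, an amino acid transporter, rose by 0.51 (adjusted p = 0.0461), Gpx3, a secreted glutathione peroxidase, by 0.40 (adjusted p = 0.0984), Acvr1b, an activin receptor, by 0.41 (adjusted p = 0.0856) and Rps4x, a ribosomal protein, by 0.16 (adjusted p = 0.0447). Each was the only member of its list to pass, of 27, 20, 22 and 83 tested in that order, against 0.769% of all genes. These 4 differed between pair-fed and vehicle mice by 0.34, 0.39, 0.47 and 0.15.

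Further genes past the adjusted p alone were chosen here after their values were seen. Mlxip, whose product MondoA senses glucose phosphates, had a log2 fold change of -0.25 (adjusted p = 0.0744) and Castor2, of the family of arginine sensors upstream of mTORC1, of -0.32 (adjusted p = 0.0922), and both fell. In the pair-fed mice these genes differed from vehicle by -0.38 and -0.36. Timp3, an inhibitor of matrix metalloproteinases, rose by 0.35 (adjusted p = 0.00951), whereas Mmp15, a membrane-bound member of those enzymes, fell by 0.31 (adjusted p = 0.0682). Sun1 and Syne1, which link the nucleus to the cytoskeleton, had log2 fold changes of 0.23 and -0.21, both past the adjusted p. Slc25a33, a mitochondrial pyrimidine carrier, rose by 0.34, and Klf13, a relative of Klf9, rose by 0.35. Arid5b, a chromatin factor, fell by 0.48, with a pair-fed mean of 196 ± 19.3 beside 198 ± 27.6 under GDF15 and 275 ± 18.8 in the vehicle mice.

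The GDF15-treated mice can be set beside the pair-fed mice for these genes. The comparison uses the same GDF15-treated mice, so it is no independent result. Of the 91 genes, 16 had an adjusted p under 0.1 for GDF15 against pair-fed, where 2.17% of all genes did, among them Cish, Arntl, Per3, Cry2, Klf9, Fkbp5, Auts2 and Zfp229 with the values given, and Fgfr1, Lrrc30, Trib2, Ksr1, Mast4, Rasa4, Cd24a and Usp54. Fgfr1, a receptor for fibroblast growth factors, rose over vehicle by 0.27 and was higher than in the pair-fed mice by 0.41 (adjusted p = 0.00718). Lrrc30, a leucine-rich repeat protein, rose by 0.34 and was 0.40 above the pair-fed mice (adjusted p = 0.0141). Trib2, a pseudokinase, fell by 0.46, and its difference from the pair-fed mice was -0.44 (adjusted p = 0.0322).

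Fatty acid uptake and oxidation genes were nearly all fitted slightly lower, none past the test. Of 28 genes, 0 passed the adjusted p, 9 had an unadjusted p under 0.05 (11.0% of all genes did) and 27 (96.4%) had a fitted difference below 0, against 49.6% of all genes. The median log2 fold change was -0.22, and -0.31 in the pair-fed mice against the same vehicle mice. Relative to the vehicle mean, the average over these genes was -0.565 in GDF15-treated mouse 1, -0.472 in mouse 6 and 0.0503 in mouse 4, with the 3 others between -0.185 and -0.0367. The vehicle mice themselves ranged from -0.149 to 0.178, so mice 1 and 6 stood well below them, mice 2 and 3 just below, and mice 4 and 5 inside their range. The abundant members Fabp3, a fatty acid carrier, and Hadha, a beta-oxidation enzyme, differed by -0.44 and -0.21. Pdk4, which turns off pyruvate oxidation during fasting, differed by -0.71 with overlapping groups (adjusted p = 0.254).

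Respiratory chain genes had smaller differences. Of 47 complex I genes, 41 had a fitted difference below 0, against 49.6% of all genes, 0 passed, against 0.769%, and 7 had an unadjusted p under 0.05, against 11.0% of all genes, with a median of -0.06, and of 45 genes of complexes II to V, 39 were below 0, 0 passed and 5 had an unadjusted p under 0.05, with a median of -0.058. Examples with high counts were Ndufs1 (-0.093), Atp5b (-0.041) and Atp5a1 (-0.052). Relative to the vehicle mean, complex I genes averaged -0.144, -0.101 and -0.105 in GDF15-treated mice 1, 2 and 6. Mice 3, 4 and 5 lay inside the vehicle range of -0.0387 to 0.0579. The same mice lay inside the vehicle range of -0.027 to 0.0328 for complexes II to V. Among 83 cytosolic ribosomal protein genes, 74 were above 0, against 50.4% of all genes, 1, Rps4x, passed, against 0.769%, and 20 had an unadjusted p under 0.05, with a median of 0.066. Rps2 and Rplp0 differed by 0.0048 and 0.063. Mitochondrial ribosomal proteins had 59 of 78 below 0, 0 past the adjusted p, 7 at an unadjusted p under 0.05, and a median of -0.035, with Mrpl42 at -0.022 and Mrpl51 at -0.065. By mouse, the averages of both ribosomal lists overlapped between the groups. They were 0.0291 to 0.119 under GDF15 and -0.0591 to 0.0622 in vehicle mice for the cytosolic list. For the mitochondrial list they were -0.0945 to 0.0267 and -0.0419 to 0.0372.

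The thermogenic and calcium-handling genes whose expression the study also measured apart from sequencing, not all of them stated to be in muscle, did not pass. Of 13 tested, 0 passed in limma, against 0.769% of all genes, 2 had an unadjusted p under 0.05, against 11.0%, and Ryr2 fell below the minimum count. Ppara, a lipid-sensing receptor, differed by -0.56 (adjusted p = 0.31), Cpt1a, which carries fatty acids into mitochondria, by -0.31, Cidea, a lipid droplet protein, by -0.65 and Ucp3, an uncoupling protein, by -0.28. The calcium pump genes Atp2a1 and Atp2a2 differed by 0.093 and 0.12, and their inhibitors Sln and Pln by -0.034 and 0.079. The others were Ppard (0.057), Ckb (0.11), Ppargc1a (0.061), Cox8b (0.027) and Gpd2 (0.029). Against the pair-fed mice 1 of the 13 passed, Gpd2 at -0.27 (adjusted p = 0.0821), where 2.17% of all genes did. Between pair-fed and vehicle mice 3 passed, Ppara at -0.84, Atp2a1 at 0.20 and Gpd2 at 0.30, where 6.37% of all genes did. The 95% interval for Sln was -0.84 to 0.77 on the log2 scale and that for Atp2a1 was -0.0096 to 0.20. In a separate targeted measurement of muscle RNA, the paper reports higher Ppargc1a, Ucp3, Atp2a1, Sln and Pln under GDF15 than in pair-fed mice. These genes did not pass here against the pair-fed mice, which does not show that their levels were alike.

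No member of the lists below passed the adjusted p in the vehicle comparison, against 0.769% of all genes. At an unadjusted p under 0.05, against 11.0% of all genes, there were 4 of 15 mitochondrial regulators, 3 of 12 pyruvate entry, 3 of 13 polyamine, 3 of 16 glycolysis, 3 of 16 lipid droplet and 3 of 18 ATF4 genes. There were also 4 of 24 insulin signalling, 3 of 19 FOXO, 4 of 27 autophagy, 2 of 14 glycogen, 3 of 24 interferon, 2 of 20 fatty acid and cholesterol synthesis, 2 of 21 chaperone, 1 of 25 calcium cycling and 1 of 38 proteasome genes. For each, 1 or 2 of the members with the highest counts are given as log2 fold changes. In glycolysis these were Aldoa (0.069) and Gapdh (0.059), in glycogen metabolism Pygm (0.066), and in pyruvate entry Pdha1 (-0.081) beside Pdk4. In lipid droplets and lipolysis they were Lpl (-0.091) and Lpin1 (0.081), in fatty acid and cholesterol synthesis Fdft1 (0.089) and Srebf1 (-0.36), and among mitochondrial regulators Perm1 (-0.051) and Esrra (-0.026). Calcium cycling had Atp2a1, given above, and Ckm (0.063). Stress, turnover and signalling lists gave Vldlr (0.075) and Atf4 (0.068) for the ATF4 response, Sqstm1 (0.10) and Fbxo40 (0.016) for FOXO targets, Slc2a4 (0.10) and Akt2 (0.095) for insulin signalling, and Amd1 (0.21) and Oaz1 (0.028) for polyamines. Chaperones gave Hspa8 (-0.042) and Hsp90ab1 (0.06), interferon response genes H2-D1 (0.11) and H2-K1 (0.047), autophagy Pink1 (0.10) and Ctsd (0.084), and the proteasome Psmd2 (0.04) and Psmb7 (0.033).

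Fibre type, innervation, dystrophin complex and matrix lists were likewise without a member past the adjusted p, and at an unadjusted p under 0.05 there were 5 of 17 denervation, 4 of 20 matrix, 3 of 16 dystrophin complex, 2 of 15 fast-fibre and 0 of 13 slow-fibre genes, against 11.0% of all genes. Their median log2 fold changes were 0.26 for slow-fibre genes, 0.035 for fast-fibre genes, 0.12 for denervation genes and 0.082 for matrix genes other than collagens. Fast-fibre genes gave Myh4 (-2.3e-05) beside Atp2a1, slow-fibre genes Ankrd2 (-0.13) and Casq2 (-0.30), and denervation genes Scn4a (-0.14) and Hdac4 (-0.32). Myh7, the slow myosin, measured 1094 normalised counts in GDF15-treated mouse 1 against a median of 89.6 in its group, so that mouse stood apart. The dystrophin complex list gave Aqp1 (0.26) and Dag1 (0.032), and matrix genes other than collagens gave Dcn (0.37) and Sparc (0.0055). In the lists with 1 member past the adjusted p, the other members named by level were Dld (-0.088) and Bckdk (-0.048) for amino acid breakdown, Smad3 (-0.23) for activin signalling and Sod2 (-0.17) for glutathione and NRF2.

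**Figure D5:**
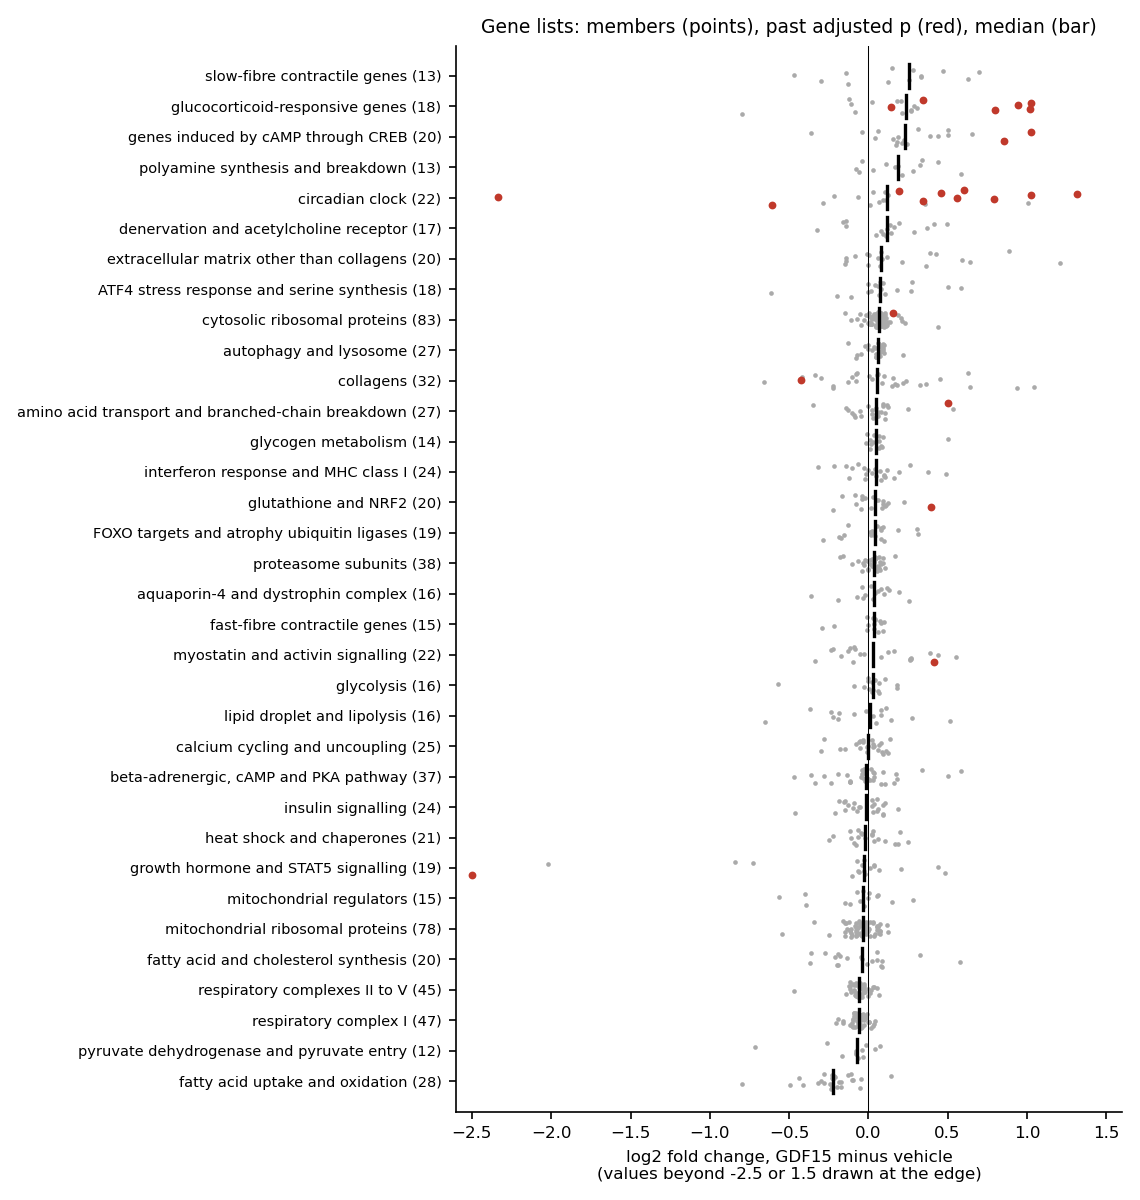
For each gene list, the log2 fold changes of its tested members, GDF15-treated over vehicle mice, with 1 point per gene, the number tested in brackets and a bar at the list median. Red points passed the adjusted p, 10 in the clock list and 6 in the glucocorticoid list, and the point of Cish is drawn at the left edge.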

How the data were processed

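The tibialis anterior libraries were grouped by their labels into 5 from vehicle, 6 from GDF15 and 5 from pair-fed mice. Per the labels and methods, the authors made libraries with the NEBNext Ultra II Directional kit, used Trim Galore for trimming, Salmon for transcript estimates and DESeq2 for scaling, with mm10 as the build. Tool versions, annotation and strand setting are not given in the sources used here. The authors' deposited table holds log2 values for 14538 genes whose form is that of the DESeq2 variance-stabilized scale. They run from 7.32 to 19.96, and the lowest, held 8459 times, stands for a count of 0. The design had assumed normalised counts, so these were recovered with the inverse of that transformation. Low values of 1397 genes with a single transcript fell within 0.1 of a whole multiple of 1 step in 90.9% to 96.9% of cases per library, and dividing by it gave a depth of about 9496162 to 15023633 reads. Whole reads were not recovered for all genes, so count tests were not run.

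Genes with a mean of at least 10 normalised counts over the 16 libraries were fitted on log2(normalised count + 1) with limma 3.58.1 in R 4.3.3 (eBayes with a trend), all 3 groups in the fit, two-sided, with Benjamini-Hochberg adjustment over 11841 genes. A fold change on this scale understates the change of low genes. Called genes had an adjusted p under 0.1 and a log2 fold change over 0.6 in size, the study's thresholds. P-values rest on separate mice, and low counts add counting noise to their spread. The fit was tested on simulated data. Genes named are those past both thresholds (values per mouse for the 12 higher and 8 lower with the smallest adjusted p), list members past the adjusted p or, in lists with fewer than 2 such, the 2 with the highest counts, the genes the study also measured apart from sequencing, the clock list, Ghr, Stat5a, Stat5b, Socs2, Bcl6 and Igf1, the 5 highest of those past the adjusted p, and the markers. Others, such as Cd93, Aplnr, Jun, Socs1, Fgfr1, Lrrc30 and Trib2, were chosen after their values were seen. The comparison, lists and markers were chosen with earlier results of these data known. Positions come from GENCODE vM21 (GRCm38), in which 14282 symbols were found, and 35 of the 91 genes past the adjusted p share exons with another gene. A few genes that the naming rule selects are not reported here. Alternatives were other pseudocounts (0.5 and 5), other minimums, the deposited values, no trend, only 2 groups in the fit, library weights, other scalings, a block by mouse number, depth, tendon or endothelial markers as a covariate, other thresholds and each library left out. Python 3.11.15, pandas 2.3.3, numpy 2.4.6, scipy 1.17.1 and matplotlib 3.10.9 were used.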

Additional observations from a re-analysis of the deposited data

Results flagged for a closer look

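A mouse stood apart from the rest of its group by Dixon's test in 26 of 438 tests over the named genes and both groups, and chance flags about 1 group in 20. Among genes past the adjusted p there were 13 in 182 tests. All values are normalised counts, with the range of the other mice of the group after them.

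Vehicle mouse 1 was low for Aldh1l1 at 60.7 (87.6 to 97.2) and for Kdr at 1102 (1237 to 1275), and high for Tef at 3991 (3807 to 3827), Tsc22d3 at 2028 (1725 to 1790.0) and Lrig1 at 1384 (1311 to 1320.0). Vehicle mouse 2 was high for Plin5 at 851 (667 to 705). Vehicle mouse 3 was low for Ckb at 53.3, below the next lowest of 86.4, and high for Vwa3b at 228 (133 to 148) and Mrpl42 at 2850.0 (2516 to 2598). Vehicle mouse 5 was high for Zfp229 at 97.8 (63.9 to 68.4).

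GDF15-treated mouse 1 was high for the slow myosin gene Myh7 at 1094 (45.6 to 112) and for Atp2a2 at 963 (461 to 590), the gene of the calcium pump of slow fibres, and low for Slc43a3 at 405 (584 to 654) and Slmap at 882 (1018 to 1085). Mouse 2 was low for Gnas at 17470.0 (18480.0 to 18690.0). Mouse 3 was high for Mrpl42 at 2789 (2495 to 2594). Mouse 4 was low for Ciart at 36.7 (73.7 to 99.5) and Fmo2 at 233 (294 to 328), and high for Lpin1 at 6732 (5613 to 5997). Mouse 5 was low for Mt2 at 27.0 (45.3 to 58.3) and Ppp1r3c at 4302 (5934 to 6915), and high for Cd93 at 539.6 (389 to 434) and Cry1 at 337 (222 to 258). Mouse 6 was high for Asb2 at 14980.0 (11500.0 to 12600.0) and Rora at 1340.0 (958 to 1066), and low for Rplp0 at 7417 (7788 to 7975).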

How the results depend on the processing

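No gene of the 36 past both thresholds, or of the 91 past the adjusted p alone, changed sign under any of the 26 alternatives. Cish, Per1 and Tob2 passed both thresholds under every one, 13 of the 36 dropped out under at most 3 and 10 under more than 13. Of 128 other named genes, 60 changed sign somewhere, all without passing. Npas2, Mthfd1l, Anxa8 and Vmn2r97 rest on low counts.

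With each library left out in turn, the genes past both thresholds numbered 21 to 37, those past the adjusted p 45 to 90, called named genes 19 to 27, list members 10 to 20 and GDF15 against pair-fed 9 to 16. The lowest values of the first were 21 without GDF15-treated mouse 2, 22 without vehicle mouse 2 and 23 without vehicle mouse 3. Of the 36 genes, 15 kept both thresholds without each library and 21 did not.

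The same 5 counts were 36, 91, 36, 22 and 16 in the fit as reported, and the genes also measured apart from sequencing gave 0 throughout. On the deposited values 9 genes passed both thresholds, 8 of them named, 88.9% of them higher against 66.7%. Without the trend 48 passed the adjusted p, 11 in lists and 8 against pair-fed. With the replicate block the counts were 20, 38, 18 and 11. Deviations from the group means correlated at -0.0868 to 0.0394 between vehicle and GDF15-treated mice of the same number. That does not settle whether the numbers pair mice, and it was not computed for GDF15-treated and pair-fed mice. With depth as a covariate the counts were 19, 31, 15, 8 and 7, with 73.7% higher. Chosen after seeing the data, tendon markers as a covariate gave 42 past the adjusted p, 16 named and 8 in lists, endothelial markers gave 15, 26, 12 and 7, with 73.3% higher, and leaving out GDF15 libraries 1 and 2 gave 23, 47, 21 and 11. An adjusted p under 0.05 left 23 genes and a log2 fold change over 1 left 11. The cause of these shifts was not tested.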

Other observations

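Gdf1 had the largest log2 fold change of the tested genes, 4.75, and Cers1 was among the lowest at -3.35; neither passed (adjusted p = 0.153 and 0.274). Both were chosen after their values were seen. In GENCODE vM21 they overlap on the same strand, Cers1 at chr8:70315775-70331592 and Gdf1 at chr8:70329817-70331587, and share exons. Gdf1 was listed at 0 normalised counts in vehicle mice 1, 3 and 4 and Cers1 at 0 in GDF15-treated mouse 3, where Gdf1 measured 225.5. Cers1 measured 3.19 in GDF15-treated mouse 2 and 4.55 in mouse 4, against 259.6 and 252 for Gdf1. The sum of both genes was 287 to 304 in the vehicle mice and 225.5 to 356 in the GDF15-treated mice, so the summed groups overlapped. How reads of the shared transcripts were assigned between the genes was not tested.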
